A study of Mus musculus with 42 samples.

Results

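Cybb, Cyba, Ncf1, Ncf4 and Rac2 encode 5 proteins of the phagocyte NADPH oxidase, and their rows were taken by symbol from both count tables of a study of mouse microglia. They are 5 of 53546 genes in the cortex and hippocampus table and 5 of 24421 genes in the whole-brain table, and they were listed by name, not chosen by a threshold. Microglia are the resident macrophages of the brain; here, cells of C57BL/6 mice that were CD11b+ and CD45lo were sorted and sequenced in bulk, in 42 libraries of 11 groups. Whole-brain microglia came from wild-type mice aged 6 to 12 weeks: 3 were housed specific-pathogen-free (SPF) and 5 lived without any microbes (germ-free, GF). The labels of the whole-brain libraries also read 8w and F, for 8 weeks and female. All other mice were 16 weeks old. Cortex microglia came from wild-type SPF, GF and acetate-treated GF mice (n = 4 each), and hippocampus microglia from wild-type SPF (n = 4), GF (n = 3) and acetate-treated GF mice (n = 4) and from 5xFAD SPF (n = 4), GF (n = 3) and acetate-treated GF mice (n = 4). Acetate, a short-chain fatty acid made by gut bacteria, was given in the drinking water, and the acetate groups were germ-free too. The labels name treatments of 4 and of 8 weeks and tie only the longer one to wild-type and 5xFAD mice together. 5xFAD mice carry mutant human transgenes driven by the neuronal Thy1 promoter and deposit amyloid. Within a group each library is labelled as a separate animal, and 11 wild-type animals gave both a cortex and a hippocampus library.

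The phagocyte NADPH oxidase passes electrons from NADPH across a membrane to oxygen and so makes superoxide, with which neutrophils and macrophages attack ingested microbes. Cybb (gp91phox, NOX2) is the electron-carrying subunit and Cyba (p22phox) its membrane partner; each stabilises the other. In resting cells Ncf1 (p47phox, the organiser) and Ncf4 (p40phox, which binds phosphatidylinositol 3-phosphate) stay in the cytosol, and on stimulation they move to the membrane together with a Rac GTPase, Rac2 in most blood phagocytes and also the ubiquitous Rac1. Loss of any of several of these subunits causes chronic granulomatous disease in people, and in brain the microglial enzyme is a known source of oxidants.

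Promoter sequence was available for the 3 members whose values are described first, from the RefSeq table on build GRCm38.p6: the 250 bases before each annotated start, written 5′ to 3′ on the gene's own strand. They are shown because Cybb and Ncf1 are the members with a called difference and Cyba is the partner of Cybb. Capitals mark matches to GAAANNGAAA on either strand, a pair of the half-sites found in interferon-stimulated elements. Cybb lies at chrX:9469325-9469574, Ncf1 at chr5:134229626-134229875 and Cyba at chr8:122432941-122433190, each on the minus strand.
Cybb: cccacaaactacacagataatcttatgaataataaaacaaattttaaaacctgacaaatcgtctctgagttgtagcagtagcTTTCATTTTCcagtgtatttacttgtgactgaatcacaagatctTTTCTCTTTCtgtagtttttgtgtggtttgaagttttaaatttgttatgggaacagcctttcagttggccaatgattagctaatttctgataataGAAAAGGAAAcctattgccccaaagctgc
Ncf1: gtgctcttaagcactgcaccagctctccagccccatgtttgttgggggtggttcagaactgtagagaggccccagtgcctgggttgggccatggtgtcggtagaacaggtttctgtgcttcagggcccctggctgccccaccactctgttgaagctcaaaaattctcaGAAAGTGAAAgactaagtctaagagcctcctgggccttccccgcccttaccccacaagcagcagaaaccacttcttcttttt
Cyba: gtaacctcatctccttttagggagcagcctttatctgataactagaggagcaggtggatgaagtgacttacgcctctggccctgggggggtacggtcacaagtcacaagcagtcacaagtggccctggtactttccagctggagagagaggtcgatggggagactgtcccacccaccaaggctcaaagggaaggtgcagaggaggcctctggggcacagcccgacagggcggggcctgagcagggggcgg
The Cybb window held 3 matches, the nearest 29 to 20 bases before the start, and the Ncf1 window held 1, at 82 to 73 bases before it. The Cyba window held none. Of 32851 promoters of this length, 3.0% held a match. CCAAT was found in Cybb (33.8% of promoters), TTCNNNGAA in Ncf1, overlapping its GAAANNGAAA match (7.0%), and GAGGAA in none of the 3 (23.3%). These are matches of letters and not measured binding sites.

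Total counts were 19.33 to 25.37 M in whole brain, 15.79 to 23.86 M in cortex and 5.74 to 22.53 M in hippocampus. Levels are CPM values, counts scaled to a common library size with TMM factors that correct for composition within each table, and the 2 tables are not compared by test. The sex-linked genes Xist and Ddx3y were at 95.1 to 192 CPM and at 0 in whole brain. In cortex and hippocampus Xist was at most 3.36 CPM and Ddx3y 64.0 to 150 CPM, so the tables differ in sex as well as in age. All 8 microglial markers checked (among them P2ry12, Tmem119 and Csf1r) were present, and their summed level was between 37792 and 75498 CPM in every library. The library labelled 5xFAD SPF2152 went against its label in genes of disease-associated microglia: Cst7 was 13.2 CPM there, 351 to 789 CPM in the other 10 5xFAD libraries and 4.27 to 22.4 CPM in the 11 wild-type hippocampus libraries. App was at 190 CPM in SPF2152, which itself set the lower end of the 5xFAD SPF range of 190 to 217 CPM. That level was above the wild-type SPF hippocampus range of 139 to 158 CPM. It was inside the wild-type acetate hippocampus range of 164 to 216 CPM. The fitted differences of the members reported here that use the 5xFAD SPF group are therefore given with and without this library. Neutrophils are rich in this oxidase, and 13 neutrophil genes (12 of them used in whole brain; Csf3r left out, because all of these microglia express it, a choice made after its values were seen) summed to 278 CPM in 5xFAD SPF2153, 244 CPM in wild-type hippocampus GF532, 188 CPM in whole-brain GF4, 29.9 CPM in whole-brain GF1, 18.7 CPM in cortex GFA524 and at most 2.61 CPM in every other library. In bulk samples, fewer cells of a type and less RNA per cell cannot be told apart.

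Per kilobase of exon, Cyba was the most abundant member in all 11 groups and Cybb the least. Group means ran from 313 to 676 CPM per kb for Cyba, 150 to 256 for Ncf1, 38.0 to 66.3 for Rac2, 33.4 to 53.4 for Ncf4 and 0.23 to 7.59 for Cybb. Only Rac2 and Ncf4 were close neighbours: in cortex their libraries ran from 45.3 to 60.5 and from 37.3 to 58.9 CPM per kb. Over the 9 cortex and hippocampus groups the highest group mean was 33.4 times the lowest for Cybb and between 1.48 and 1.60 times for the other 4. Cybb was the scarcest member and the one that varied most between libraries in each tissue.

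In all, 95 tests (5 members in 19 comparisons, edgeR's quasi-likelihood test, two-sided, adjusted by Benjamini-Hochberg over all genes of a fit) gave 3 calls at adjusted p under 0.05. They were Cybb in 5xFAD against wild type, in SPF and in acetate-treated mice, and Ncf1 in GF against SPF 5xFAD mice. All 5 members passed the filter on low counts in every fit. Another 36 tests had an unadjusted p under 0.05 without passing the adjustment. Over all genes, from 905 of 17063 to 2993 of 16706 had such a p, depending on the comparison.

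**Figure D1:**
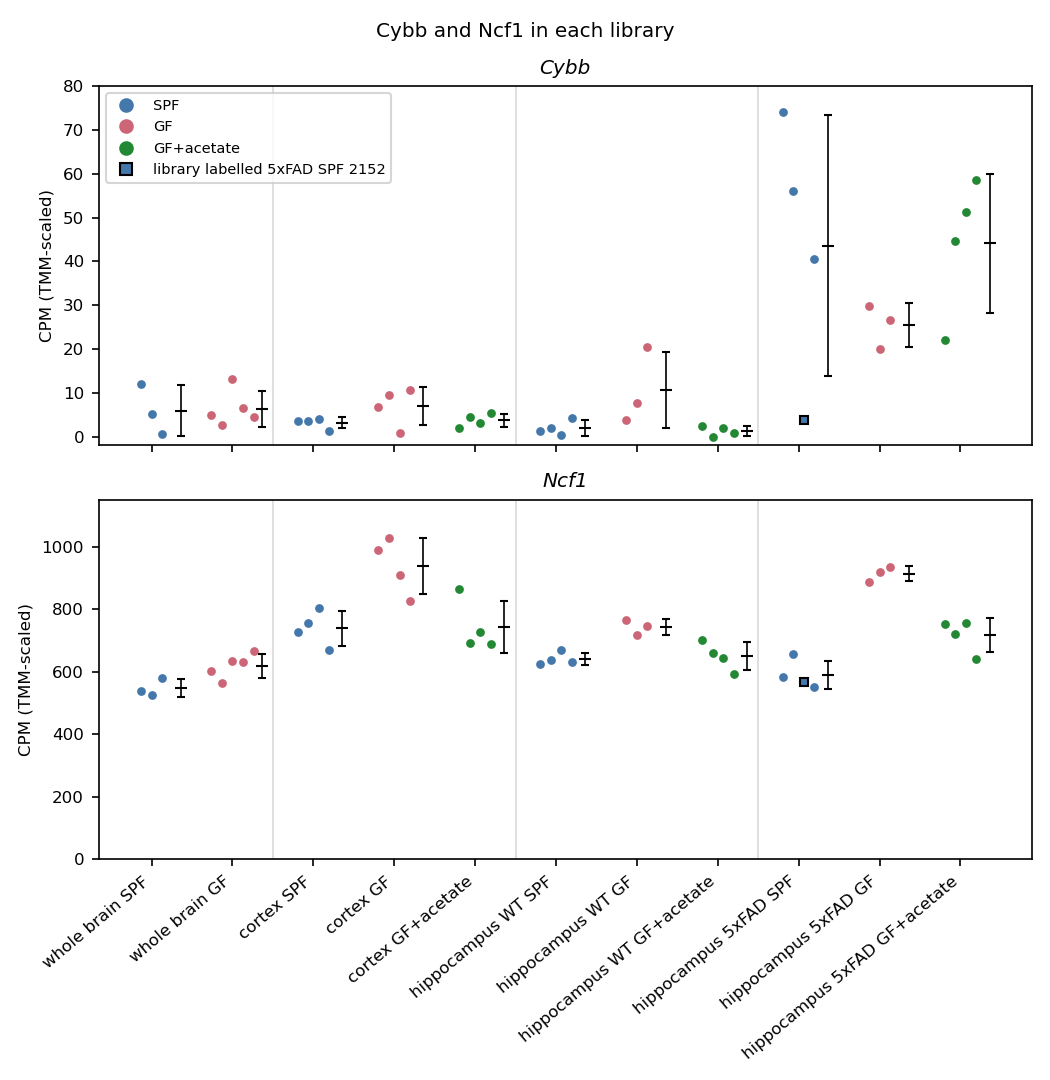
Level of Cybb (top) and Ncf1 (bottom) in TMM-scaled CPM on linear axes, 1 point per library in each of the 11 groups, with the group mean and SD beside the points; WT, wild type. The square is the library labelled 5xFAD SPF2152, at 3.82 CPM of Cybb, while the other 5xFAD libraries lie between 19.9 and 74.0 CPM.

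Cybb, the catalytic subunit, was higher in hippocampus microglia of 5xFAD than of wild-type mice under SPF conditions. The 4 wild-type SPF libraries had 1.20, 1.91, 0.33 and 4.38 CPM (6 to 40 counts), and the 5xFAD SPF libraries had 74.0 (SPF2140), 56.0 (SPF2142), 3.82 (SPF2152) and 40.5 CPM (SPF2153). Of the 4 5xFAD libraries, 3 stood at or above 40.5 CPM and SPF2152 lay within the wild-type range. The fitted difference was 25.7-fold (log2 4.68, SE 0.85, 95% interval 2.91 to 6.45, edgeR adjusted p = 0.0117), and 5xFAD SPF averaged 43.6 CPM (SD 29.8, n = 4). Without SPF2152 it averaged 56.8 CPM (SD 16.8, n = 3) and the difference was log2 5.08 (adjusted p = 0.000263), where 1.92% of genes were called. The call was lost without wild-type SPF2 (log2 4.77, adjusted p = 0.0628), without wild-type SPF3 (log2 4.28, adjusted p = 0.0594), with no filter on low counts (adjusted p = 0.0614) and when only these 8 libraries were fitted (adjusted p = 0.187). Over all 18 alternatives the log2 difference was 4.28 to 5.26 and the adjusted p 0.000219 to 0.187. This was the 1 member called among 5, in a comparison that called 0.568% of 17063 genes.

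In acetate-treated mice Cybb was also higher in 5xFAD than in wild type, with no overlap between genotypes, a separation upwards shown by 5.59% of genes there. Wild-type acetate libraries had 2.55 (GFA518), 0 (GFA523), 1.93 (GFA524) and 0.80 CPM (GFA525), and 5xFAD acetate libraries had 22.04, 44.6, 51.2 and 58.5 CPM. The library at 0 counts could hold up to 0.165 CPM, the level of 3 counts at its depth, an allowance for counting error only. The fitted difference was 32.1-fold (log2 5.00, SE 0.84, 95% interval 3.25 to 6.76, adjusted p = 0.00152), and it was called in all 18 alternatives (log2 4.60 to 5.54, adjusted p 3.71e-06 to 0.0135). Cybb was again the 1 member called, in a comparison that called 2.51% of genes.

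In GF mice the same genotype contrast was smaller and was not called. Wild-type GF libraries had 3.91 (GF529), 7.58 (GF530) and 20.6 CPM (GF532), and 5xFAD GF libraries 29.9, 19.9 and 26.6 CPM, so that the ranges met at the wild-type library GF532. The difference was log2 1.26 (SE 0.81, 95% interval -0.43 to 2.94, adjusted p = 0.652), and log2 2.15 (adjusted p = 0.452) without GF532. No member was called in this comparison, which called 0.756% of genes. Of the 5 members 2 had an unadjusted p under 0.05, as did 1810 of 17063 genes. DESeq2 called 1 member, Ncf1, and 429 genes. The difference between genotype contrasts was tested as an interaction, and none passed: for GF against SPF Cybb had log2 -3.43 (SE 1.14, unadjusted p = 0.00676, adjusted p = 0.802), or -3.82 (adjusted p = 0.457) without SPF2152, and for acetate against GF log2 3.75 (SE 1.13, unadjusted p = 0.00319, adjusted p = 0.885). None of the 3 interactions called a gene (0% of 17063, with 942, 905 and 1124 genes under an unadjusted p of 0.05 and 15, 7 and 10 called by DESeq2), nor a member by either tool, although 2, 1 and 1 members had an unadjusted p under 0.05. Without SPF2152 the GF against SPF interaction called 1 gene, which was no member.

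Monocytes, border macrophages and neutrophils also express Cybb, and their markers are given here beside it. The 7 monocyte genes summed to 9.45 to 33.4 CPM in 5xFAD SPF and 4.72 to 13.6 CPM in wild-type SPF hippocampus, and to 6.51 to 14.5 and 5.53 to 23.9 CPM in the acetate groups. The classical monocyte gene Ly6c2 was at 0 in all 8 SPF libraries and at most 0.91 CPM elsewhere in hippocampus. Ccr2, of the same list, was at 8.04 to 10.6 CPM in 5xFAD SPF and 3.03 to 12.8 CPM in wild-type SPF. The part of monocytes in the Cybb differences was not tested. The 6 border-macrophage genes summed to 12.8 to 28.8 CPM in 5xFAD and 13.7 to 27.3 CPM in wild-type SPF, but to 10.9 to 26.2 against 1.27 to 10.1 CPM in the acetate groups; their part in the acetate difference was not tested. Neutrophil genes were at most 2.12 CPM in the acetate hippocampus groups. Without the neutrophil-rich library SPF2153 as well as SPF2152 and GF532, the SPF difference was log2 5.26 (adjusted p = 0.000253). This setting was chosen after the data were seen and left 2 5xFAD SPF libraries. Leaving out SPF2152 alone already gave an edgeR adjusted p of 0.000263. Without SPF2153 alone Cybb stayed called, and 5xFAD SPF averaged 44.6 CPM (SD 36.5, n = 3). The part of neutrophils in the SPF difference was not tested.

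Within wild-type hippocampus, Cybb was higher in GF than in SPF libraries in mean only, 10.7 CPM (SD 8.74, n = 3) against 1.96 CPM (SD 1.74, n = 4), with GF529 inside the SPF range. The difference was log2 2.67 (SE 0.85, adjusted p = 0.159), and 1.78 (adjusted p = 0.429) without GF532, the library with the neutrophil signal. All 4 acetate libraries lay below the 3 GF libraries, a separation downwards shown by 4.34% of genes (log2 -2.97, SE 0.83, adjusted p = 0.115); this difference passed without the library labelled 5xFAD SPF2152 (adjusted p = 0.0416), which enters only through the shared spread, and was -2.08 without GF532 (adjusted p = 0.356), over a range of -3.71 to -2.08 and 0.0416 to 0.511 in 17 alternatives. Both contrasts share the GF libraries. Animal GF532 also had the highest Cybb of the 4 cortex GF libraries, 10.8 CPM, with GF529 next at 9.62 CPM. Neutrophil genes summed to 0.78 CPM in cortex GF532. The part of neutrophils in the hippocampus Cybb level of GF532 was not tested.

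Cortex and whole brain showed no called Cybb difference. Cortex SPF libraries had 3.53, 3.59, 4.15 and 1.35 CPM, GF libraries 6.77, 9.62, 0.88 and 10.8 CPM, and acetate libraries 1.95, 4.44, 3.21 and 5.44 CPM. Of the 4 GF libraries, 3 stood above all SPF and acetate libraries and GF530 below them (GF against SPF log2 1.15, SE 0.53, adjusted p = 0.336; acetate against GF log2 -0.91, adjusted p = 0.561). In whole brain SPF libraries spanned 0.67 to 12.1 CPM and GF libraries 2.75 to 13.2 CPM, and the groups overlapped almost fully (log2 0.10, adjusted p = 0.964). In 5xFAD hippocampus the GF and acetate groups did not differ by test from SPF (log2 -0.76, adjusted p = 0.812, and 0.02, adjusted p = 1), nor without SPF2152 (log2 -1.14, adjusted p = 0.513, and -0.37, adjusted p = 1). Without SPF2152 the GF libraries (19.9 to 29.9 CPM) all lay below the SPF libraries (40.5 to 74.0 CPM). Such a separation downwards was shown by 10.6% of genes. The acetate libraries (22.04 to 58.5 CPM) overlapped SPF.

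Cyba, the membrane partner of Cybb, stayed within a narrow band and was called in no comparison. In 5xFAD hippocampus SPF libraries had 490, 595, 426 (SPF2152) and 408 CPM, GF libraries 403, 358 and 337 CPM, and acetate libraries 498, 505, 395 and 436 CPM. All 3 GF libraries lay below all 4 SPF libraries, as was seen downwards for 7.07% of genes (10.6% without SPF2152). The GF against SPF difference was log2 -0.38 (SE 0.13, adjusted p = 0.171) and log2 -0.43 (adjusted p = 0.119) without SPF2152; it passed only without SPF2152, SPF2153 and wild-type GF532 together (log2 -0.55, adjusted p = 0.0478), in a range of adjusted p from there to 0.565. Against wild type, 5xFAD SPF Cyba differed by log2 0.22 (SE 0.12, adjusted p = 0.565) and by 0.27 (adjusted p = 0.389) without SPF2152. The 95% interval of the first of these was -0.02 to 0.47.

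**Figure D2:**
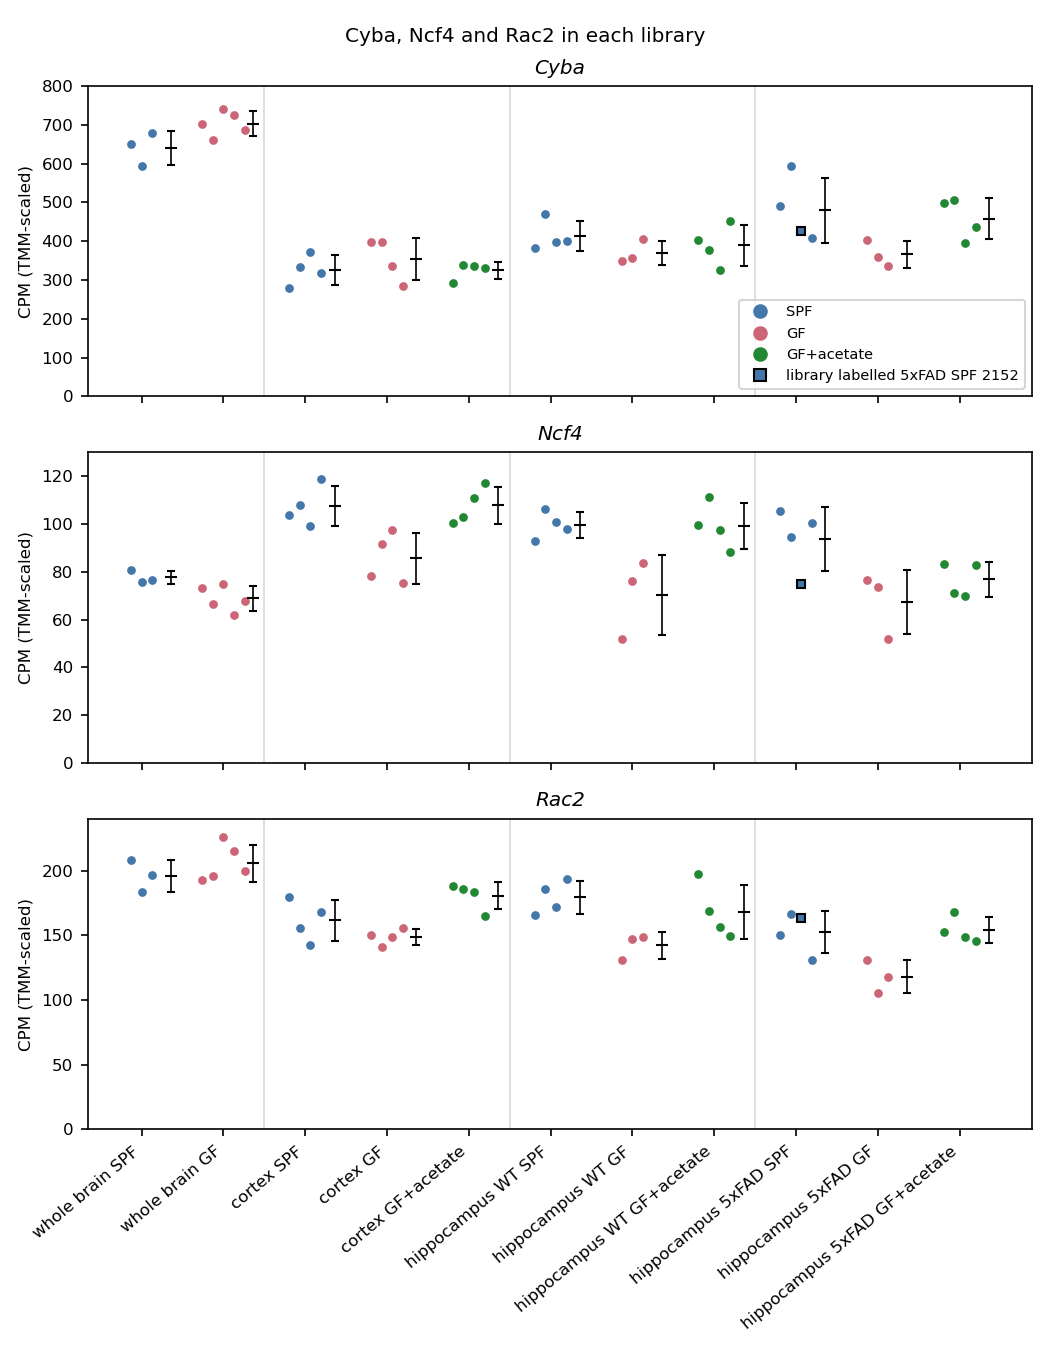
Level of Cyba, Ncf4 and Rac2 in TMM-scaled CPM on linear axes from 0, 1 point per library in each of the 11 groups, with the group mean and SD beside the points; WT, wild type. Among the cortex and hippocampus groups, the Ncf4 and Rac2 means are lowest in 5xFAD GF, at 67.4 and 118 CPM.

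Ncf1, the organiser subunit, was higher in GF than in SPF hippocampus microglia of 5xFAD mice. The SPF libraries had 583, 655, 567 (SPF2152) and 552 CPM, the GF libraries 888, 917 and 934 CPM, and the acetate libraries 753, 721, 755 and 640 CPM. The lowest GF library stood above every SPF and acetate library. The GF against SPF difference was 1.56-fold (log2 0.65, SE 0.08, 95% interval 0.48 to 0.81, adjusted p = 0.000136), the fifth smallest p among 17063 genes. It stayed called in all 17 alternatives (log2 0.58 to 0.70, adjusted p 8.01e-13 to 0.00695) and was log2 0.63 (adjusted p = 0.000461) without SPF2152. Ncf1 was the 1 member called of 5 in this comparison, which called 1.82% of genes.

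The acetate group lay between the other 5xFAD groups. Against GF its Ncf1 difference was log2 -0.37 (SE 0.08, adjusted p = 0.072) with no overlap of the libraries, a separation shown downwards by 4.89% of genes in this comparison, and against SPF it was log2 0.28 (SE 0.08, adjusted p = 0.228), or 0.26 (adjusted p = 0.269) without SPF2152. Neither passed the main edgeR fit, and both passed DESeq2 (adjusted p = 0.000727 and 0.0403). The difference from GF was called in 3 of 17 alternatives. The other passes were edgeR with a filter at a mean of 5 CPM and edgeR without wild-type GF530 and GFA518. Its adjusted p ranged from 0.000727 to 0.529. For the difference from SPF, 1 of 18 alternatives passed, with adjusted p from 0.0403 to 0.614. The 2 comparisons called 0.082% and 0.0527% of all genes and 0 members each, with 3 and 1 members under an unadjusted p of 0.05. Of 17063 genes, 1286 and 1147 were under it, and DESeq2 called 144 and 82. GF and acetate contrasts share the GF libraries.

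The same 3 conditions in wild-type hippocampus and in cortex gave smaller Ncf1 differences that did not pass. Wild-type hippocampus SPF libraries had 625.3, 638, 670 and 632 CPM, GF libraries 766, 716 and 747 CPM, and acetate libraries 701, 658, 645 and 594 CPM; GF stood above both other groups without overlap (GF against SPF log2 0.23, SE 0.08, adjusted p = 0.209; acetate against GF log2 -0.20, SE 0.08, adjusted p = 0.308, a separation downwards shown by 4.34% of genes). Cortex SPF libraries had 726, 755, 804 and 669 CPM, GF libraries 988, 1028, 910 and 826 CPM, and acetate libraries 864, 693, 726 and 688 CPM; again all GF libraries exceeded all SPF libraries (log2 0.34, SE 0.10, adjusted p = 0.0813), and GFA518 reached into the GF range (acetate against GF log2 -0.34, SE 0.10, adjusted p = 0.11). DESeq2 passed both cortex differences (adjusted p = 0.0198 and 0.0268), the first also passed with a filter at a mean of 5 CPM (adjusted p = 0.0422) and the second without GFA518 (log2 -0.42, adjusted p = 0.0458). Over 13 alternatives each they ranged to 0.23 and to 0.333. Non-overlap upwards between GF and SPF was shown by 5.01% of genes in wild-type hippocampus, 3.89% in cortex and 6.82% in 5xFAD hippocampus. In whole brain SPF libraries had 526.4 to 581 CPM and GF libraries 564 to 665 CPM, which overlapped (log2 0.18, SE 0.06, adjusted p = 0.165). Whether the 5xFAD difference exceeded the wild-type one was tested as an interaction and did not pass (log2 0.41, SE 0.11, unadjusted p = 0.0014, adjusted p = 0.573), nor did it without SPF2152 (log2 0.40, adjusted p = 0.573). Between genotypes Ncf1 differed by log2 -0.12 (adjusted p = 0.676) in SPF, -0.10 (adjusted p = 0.734) without SPF2152, 0.30 (SE 0.09, adjusted p = 0.114) in GF and 0.14 (adjusted p = 0.428) in acetate-treated mice.

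Ncf1 shares 408 of its 3663 exonic bases (11.1%) with Gtf2ird2 on the opposite strand, and whether the counting used strand is not given in the sources used here, so reads in that stretch could belong to either gene. Gtf2ird2 was at 38.0 to 75.6 CPM in cortex and hippocampus, and its own 5xFAD GF against SPF difference was log2 0.35 (adjusted p = 0.298), or 0.36 (adjusted p = 0.34) without SPF2152. Of 4 astrocyte genes, Slc1a3 had higher values beside Ncf1, at 467 to 468 CPM in 5xFAD GF and 232 to 304 CPM in 5xFAD SPF libraries, and it made up nearly all of their sum of 468 to 472 and 237 to 308 CPM. The other astrocyte genes were near 0 and their ranges overlapped: Aqp4 was 0.78 to 2.09 CPM in 5xFAD GF and 1.52 to 3.69 CPM in 5xFAD SPF, Gfap at most 1.22 and 1.18 CPM, and Aldh1l1 at most 3.25 and 8.94 CPM. The 8 microglial genes summed to 38315 to 39460 CPM in 5xFAD GF and 37792 to 51942 CPM in 5xFAD SPF. The part of these differences in the Ncf1 result was not tested.

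Ncf4, which binds the phosphoinositide of phagosomal membranes, was lower in mean in GF than in SPF in all 4 GF against SPF contrasts, none of which passed. In wild-type hippocampus SPF libraries had 93.1, 106, 101 and 97.9 CPM, GF libraries 51.7, 76.0 and 83.6 CPM, and acetate libraries 99.5, 111, 97.6 and 88.1 CPM. All GF libraries stood below all SPF and acetate libraries (GF against SPF log2 -0.48, SE 0.16, adjusted p = 0.17; acetate against GF log2 0.48, SE 0.16, adjusted p = 0.192). In cortex SPF libraries had 104, 108, 99.3 and 119 CPM, GF libraries 78.2, 91.8, 97.6 and 75.3 CPM, and acetate libraries 100, 103, 111 and 117 CPM, again with GF apart from both others (GF against SPF log2 -0.33, SE 0.11, adjusted p = 0.139; acetate against GF log2 0.33, SE 0.11, adjusted p = 0.172). Whole-brain GF libraries, at 62.0 to 74.9 CPM, lay just below the SPF libraries at 75.6 to 80.6 CPM (log2 -0.17, SE 0.09, adjusted p = 0.402). Groups that do not overlap downwards between GF and SPF were seen for 6.24% of genes in wild-type hippocampus, 3.53% in cortex and 5.44% in whole brain, and upwards between acetate and GF for 4.46% in wild-type hippocampus and 4.88% in cortex.

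In 5xFAD hippocampus Ncf4 had 105, 94.5, 74.9 (SPF2152) and 100 CPM in SPF, 76.6, 73.6 and 52.0 CPM in GF and 83.4, 71.2, 69.9 and 82.8 CPM in acetate libraries. The library labelled SPF2152 was the one SPF library inside the GF range and the one inside the acetate range. Without it, the GF and the acetate libraries all lay below the SPF libraries, separations downwards shown by 10.6% and 3.97% of genes. GF against SPF was log2 -0.46 (SE 0.16, adjusted p = 0.167), and -0.56 (adjusted p = 0.0773) without SPF2152. The acetate and GF libraries overlapped, and neither acetate contrast was called (acetate against GF log2 0.17, SE 0.16, adjusted p = 0.94; acetate against SPF log2 -0.29, adjusted p = 0.77, and -0.38, adjusted p = 0.467 without SPF2152). Between genotypes, the 5xFAD acetate libraries lay below the wild-type acetate libraries without overlap, as 3.55% of genes did, and the difference did not pass the adjustment (log2 -0.37, SE 0.14, 95% interval -0.67 to -0.08, unadjusted p = 0.0165, edgeR adjusted p = 0.214). In SPF mice the genotypes differed by log2 -0.08 (SE 0.145, edgeR adjusted p = 0.946), and by log2 0.014 without SPF2152. The interaction for acetate against GF was log2 -0.31 (SE 0.22, adjusted p = 0.978).

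Rac2, the GTPase of haematopoietic cells that switches the assembled enzyme on, had its lowest mean in 5xFAD GF. In 5xFAD hippocampus SPF libraries had 150, 167, 164 (SPF2152) and 131 CPM, GF libraries 131, 105 and 118 CPM, and acetate libraries 153, 168, 148 and 146 CPM. GF stood below acetate without overlap, as 6.61% of genes did, and just below the lowest SPF library, SPF2153. This separation from SPF was shown downwards by 7.07% of genes (10.6% without SPF2152). GF against SPF was log2 -0.36 (SE 0.11, adjusted p = 0.116), and -0.33 (adjusted p = 0.213) without SPF2152; DESeq2 passed it (adjusted p = 0.0418), and 17 alternatives reached 0.477. Acetate against GF was log2 0.37 (SE 0.11, adjusted p = 0.284).

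Wild-type hippocampus had 166 to 193 CPM of Rac2 in SPF, 130 to 149 CPM in GF and 150 to 197 CPM in acetate libraries, with GF below both (GF against SPF log2 -0.32, SE 0.11, adjusted p = 0.22; acetate against GF log2 0.23, SE 0.11, adjusted p = 0.426). Such separations were shown by 6.24% of genes downwards from SPF and by 4.46% upwards from GF to acetate. In cortex GF libraries (141 to 156 CPM) lay below acetate libraries (165 to 188 CPM; log2 0.28, SE 0.09, adjusted p = 0.182), as 4.88% of genes did, and within reach of SPF (143 to 179 CPM; log2 -0.12, adjusted p = 0.657). In whole brain the values overlapped (183 to 208 CPM in SPF, 192 to 226 CPM in GF; log2 0.07, adjusted p = 0.707). Between genotypes Rac2 was lower in mean in 5xFAD in SPF (log2 -0.22, SE 0.10, adjusted p = 0.458, and -0.26, adjusted p = 0.343, without SPF2152), GF (log2 -0.27, adjusted p = 0.407) and acetate-treated mice (log2 -0.13, adjusted p = 0.634), none of them called.

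**Figure D3:**
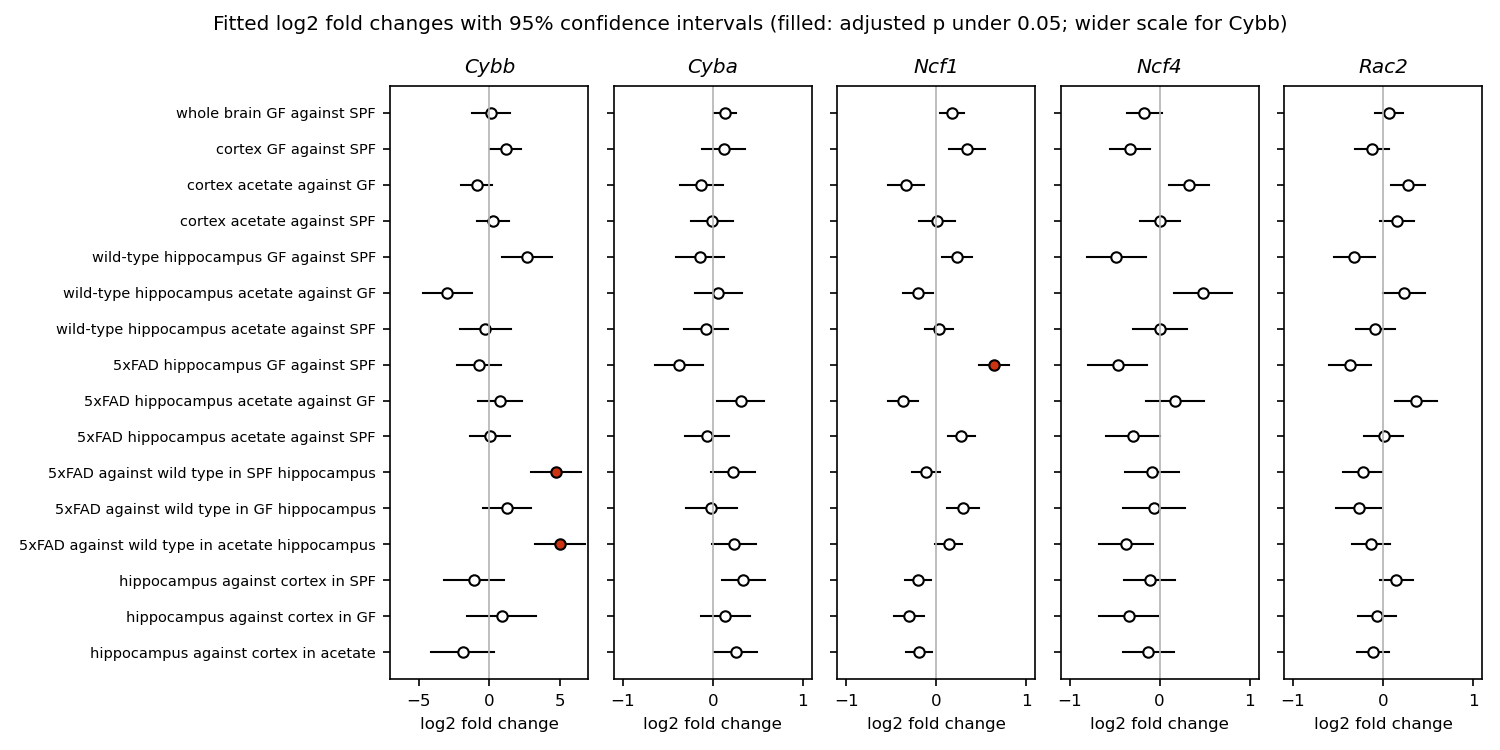
Fitted log2 fold changes (points) with 95% confidence intervals (lines) for each member (panels) in 16 two-group comparisons (rows); the first-named group is the numerator, filled points have an adjusted p under 0.05, and the Cybb panel has a wider axis. Of these values 3 are filled: Ncf1 at 0.65 in 5xFAD GF against SPF, and Cybb at 4.68 and 5.00 in 5xFAD against wild type.

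No member was called in whole brain, where 1.99% of genes were called and 2 members had an unadjusted p under 0.05 (0 by DESeq2). Of 11332 genes there, 1734 had an unadjusted p under 0.05, and DESeq2 called 638. None was called in cortex for GF against SPF (1.71% of genes; 3 members unadjusted, 1 by DESeq2), acetate against GF (0.973%; 3 and 1) or acetate against SPF (0.364%; 0 and 0). Of 15113 genes in cortex, 2079, 1706 and 1063 had an unadjusted p under 0.05, and DESeq2 called 613, 467 and 136. In cortex acetate against SPF the fitted differences of Cyba, Ncf1 and Ncf4 were between log2 -0.01 and 0.01, with 95% intervals reaching at most 0.24 either way. Those of Rac2 and Cybb were log2 0.16 (95% interval -0.03 to 0.35) and 0.245 (95% interval -0.86 to 1.35). None was called in wild-type hippocampus for GF against SPF (0.727%; 4 and 0), acetate against GF (0.492%; 3 and 0) or acetate against SPF (0.123%; 0 and 0). Of 17063 genes in wild-type hippocampus, 2151, 2003 and 1370 had an unadjusted p under 0.05, and DESeq2 called 438, 365 and 86. The members' median in 5xFAD GF against SPF was log2 -0.38, beside -0.003 over all genes tested, and -0.43 beside 0.001 without SPF2152. The median of -0.38 was the value of Cyba, and the called member Ncf1 went the other way (log2 0.65). In the other GF against SPF contrasts the median was log2 0.10 in whole brain, 0.12 in cortex and -0.14 in wild-type hippocampus. The members were not tested as a set.

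Hippocampus and cortex of the same wild-type animals were compared with the animal as a block, and no member was called in SPF (0.718% of genes; 2 members unadjusted, 2 by DESeq2), GF (0.0359%; 2 and 1) or acetate-treated mice (2.38%; 2 and 0). Of 16706 genes, 2322, 1983 and 2993 had an unadjusted p under 0.05, and DESeq2 called 896, 509 and 1406. Cyba was higher in hippocampus in mean, by log2 0.34 (SE 0.11, adjusted p = 0.164) in SPF and 0.25 (adjusted p = 0.244) in acetate-treated mice. Ncf1 was lower in mean in hippocampus in all 3 conditions, by log2 -0.20 (adjusted p = 0.166), -0.30 (adjusted p = 0.116) and -0.19 (adjusted p = 0.145). DESeq2 passed the SPF differences of both (adjusted p = 0.0357 and 0.0232) and the GF difference of Ncf1 (adjusted p = 0.00831), where the ranges over alternatives reached 0.521, 0.515 and 0.72.

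The other components were listed with the members' results already known. Of 13 partners and relatives of the oxidase, 7 or 8 passed the filter. Rac1 was called nowhere, with 418 to 481 CPM over the hippocampus groups. Hvcn1, the proton channel that compensates the charge the oxidase moves, fell in whole-brain GF microglia (log2 -0.28, SE 0.07, adjusted p = 0.0475), the 1 of 7 tested partners called there, where 1.99% of genes were called. It was also the 1 of 8 called in hippocampus against cortex of acetate-treated mice, lower in hippocampus (log2 -0.45, SE 0.11, adjusted p = 0.0495; 2.38% of genes). Rap1a, a small GTPase that copurifies with the membrane subunits, fell in 5xFAD GF against SPF (log2 -0.50, SE 0.12, adjusted p = 0.0374, and -0.52, adjusted p = 0.0461, without SPF2152), 1 of 8 beside 1.82% of genes. Its relative Rap1b was lower in 5xFAD than in wild type with acetate (log2 -0.34, adjusted p = 0.0437), also 1 of 8, beside 2.51% of genes. The partners' median in these 4 comparisons was log2 -0.06, -0.16, -0.11 and -0.12, beside 0.003, -0.06, -0.003 and 0.001 over all genes. Without SPF2152 the median in 5xFAD GF against SPF was log2 -0.138, beside 0.001.

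Of 29 upstream receptors and signalling genes, 26 or 27 were tested, and 4 rose and 2 fell in whole-brain GF against SPF, where 1.99% of genes were called. The immunoglobulin receptor Fcgr3 rose by log2 0.47 (SE 0.04, adjusted p = 3.44e-05) and the complement receptor C5ar1 by 0.49 (adjusted p = 0.00544). Tlr2, a receptor for bacterial lipoproteins, fell by 0.35 on the log2 scale (adjusted p = 0.00693) and Prkcb, a kinase that phosphorylates p47phox, fell by 0.33 (adjusted p = 0.023). Fcgr3 and Tlr2 were also the 2 called in cortex GF against SPF, at log2 0.54 (adjusted p = 0.0101) and -0.58 (adjusted p = 0.00357), beside 1.71% of genes. In cortex acetate against GF the integrin subunit Itgam and the Rac effector Pak1 rose (log2 0.67, adjusted p = 0.0325, and 0.56, adjusted p = 0.0136), beside 0.973% of genes.

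In 5xFAD GF against SPF hippocampus 1 upstream gene of 27 was called, beside 1.82% of genes: the high-affinity receptor Fcgr1, at 352 CPM in SPF and 213 CPM in GF (log2 -0.71, SE 0.14, adjusted p = 0.00813). Without SPF2152, 3 of 27 were called, beside 1.88% of genes: Fcgr1 (log2 -0.78, adjusted p = 0.00625) and Tlr2 (log2 -0.67, adjusted p = 0.0363) were lower in GF, and Pik3cg, a catalytic subunit of a leukocyte lipid kinase, was higher (log2 0.71, adjusted p = 0.0478). In 5xFAD against wild type under SPF conditions 0 of 27 were called, beside 0.568% of genes. Without SPF2152 1 of 27 was, beside 1.92% of genes: the beta-glucan receptor Clec7a (log2 2.83, SE 0.68, adjusted p = 0.0322). In 5xFAD against wild type with acetate, 2 were higher, beside 2.51% of genes: Clec7a (log2 3.10, SE 0.77, adjusted p = 0.0336) and the integrin subunit Itgb2 (log2 0.45, SE 0.10, adjusted p = 0.0104). In acetate-treated mice 5 were lower in hippocampus than in cortex, beside 2.38% of genes, among them Pik3cd, a relative of Pik3cg (log2 -0.72, SE 0.10, adjusted p = 0.00556). The medians of the list lay between log2 -0.21 and 0.11 in the 19 comparisons with all libraries, beside -0.06 to 0.01 over all genes.

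Among 7 transcription factors known for phox genes, all tested, Cebpb rose (log2 0.80, SE 0.09, adjusted p = 0.000224) and Nfkb1 fell (log2 -0.46, SE 0.08, adjusted p = 0.00827) in whole-brain GF against SPF, beside 1.99% of genes. Rela was lower in hippocampus than in cortex of acetate-treated mice (log2 -0.47, adjusted p = 0.0196), beside 2.38% of genes. With all libraries, 0 of the 7 were called in the 3 comparisons in which a member was called. Without SPF2152, 1 of the 7 was called in 5xFAD GF against SPF, beside 1.88% of genes: Irf8 was lower in GF (log2 -0.44, SE 0.11, adjusted p = 0.043). In 5xFAD against wild type under SPF conditions, where Cybb was called, 1 of the 7 was higher without SPF2152, beside 1.92% of genes.

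Over the 22 hippocampus libraries, which share 1 table and fall into 6 groups, the members did not vary as 1 block; these correlations of log2 CPM describe the libraries and carry no p. Ncf1 and Ncf4 ran in opposite directions (Pearson r = -0.66, Spearman rho = -0.63, and r = -0.73 without SPF2152), as did Ncf1 and Rac2 (r = -0.57, rho = -0.41, and r = -0.57 without it), while Ncf4 and Rac2 ran together (r = 0.60, rho = 0.58, and r = 0.62 without it). Cybb correlated weakly with its partner Cyba (r = 0.37, rho = 0.41). Of 9567 genes at a mean of at least 5 CPM, the 3 most like Cybb were Oasl2 (r = 0.89), Axl (r = 0.86) and Irf7 (r = 0.85). Most like Cyba were D8Ertd738e, Fcer1g and Rpl8 (r = 0.85 each), most like Ncf1 were Pitpnc1, Tmod1 and Cpeb2 (r = 0.88 each), most like Ncf4 were Fam167b, Arhgef2 and Phf5a (r = 0.85, 0.83 and 0.82), and most like Rac2 were Tmem176b, Cdc42 and Comtd1 (r = 0.91, 0.90 and 0.87).

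**Figure D4:**
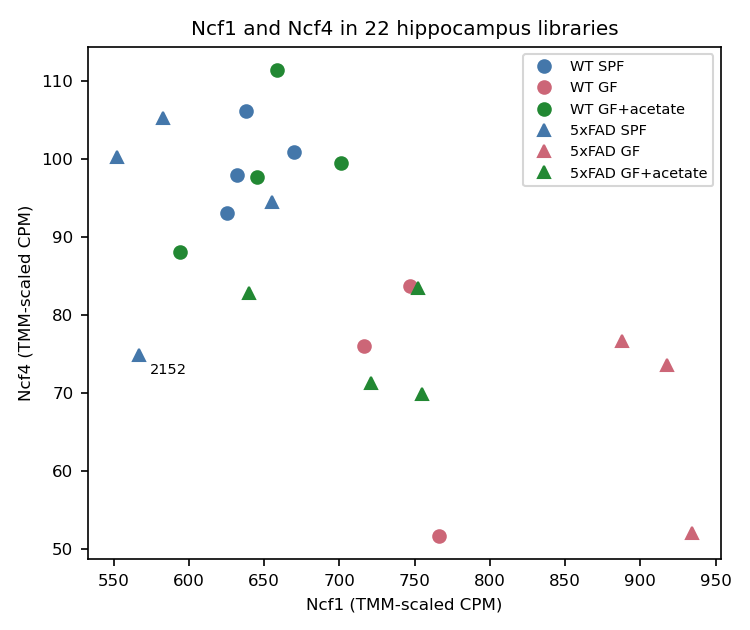
Ncf4 against Ncf1, both in TMM-scaled CPM, in the 22 hippocampus libraries; circles are wild-type (WT) and triangles 5xFAD libraries, coloured by condition. The 5xFAD GF libraries lie at the lower right, at 888 to 934 CPM of Ncf1 and 52.0 to 76.6 CPM of Ncf4, and the library labelled SPF2152 lies apart from the other 5xFAD SPF libraries at the lower left. Neither axis starts at 0.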

How the data were processed

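The deposited tables hold raw counts per gene; the authors aligned reads with STAR 2.5.2b and counted with featureCounts 1.5.1, naming build GRCh38, per the submitters' processing notes. That build is human while the symbols are those of mouse, so coordinates given are RefSeq's and exon lengths are from GENCODE M21, not the files'. In R 4.3.3, edgeR 4.0.16 (TMM, filterByExpr with a minimum count of 10, robust quasi-likelihood) was fitted separately to whole brain, cortex, hippocampus and the paired regions, with adjustment over all genes; DESeq2 1.42.0 was an alternative, beside RLE factors, other filters, fewer groups, blocks and left-out libraries. Fits were tested on simulated data. Members and gene lists were chosen with earlier results of these data known. Named genes are the members, up to 4 called genes per list and comparison by smallest p, and the 3 most correlated genes per member; listed genes called only without SPF2152 were added after their values were seen, and 2 listed genes are not reported here. Log2 CPM for correlations used a prior count of 2. Groups follow the labels; p-values measure the spread between these animals. In 61 pairs of replicate libraries the counts differed by more than sampling noise (chi-square 10.09 to 60.25 per degree of freedom). The pairing of cortex and hippocampus rests on the animal numbers in the labels. Deviations across genes correlated weakly within these pairs (r 0.027 to 0.115 in 11 animals), and mismatched animals were not compared.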

Additional observations from a re-analysis of the deposited data

Results flagged for a closer look

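In 40 sets of 1 member in 1 group of 4 or 5 libraries, 1 set had a library far from the others: Cyba in cortex acetate library GFA518 was 293.18 CPM, against 331.721 to 337.84 CPM in the other 3, a gap of 0.863 of the group's range (the limit for 4 libraries is 0.829). Chance alone marks about 1 set in 20.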

How the results depend on the processing

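Of 1532 recomputed member differences, 1511 kept their side of the threshold, though 84 of these changed sign where neither value passed. Another 4 lost their call (all Cybb in SPF 5xFAD against wild type), 17 gained one and no called difference reversed. With DESeq2, members called became 1 (Ncf1) in cortex GF against SPF, cortex acetate against GF, 5xFAD acetate against GF, 5xFAD acetate against SPF, 5xFAD against wild type in GF and hippocampus against cortex in GF, and 2 in 5xFAD GF against SPF (Ncf1, Rac2) and hippocampus against cortex in SPF (Cyba, Ncf1). A filter at a mean of 5 CPM gave 1 (Ncf1) both in 5xFAD acetate against GF and in cortex GF against SPF. No filter gave 0 in SPF 5xFAD against wild type, 1 (Cyba) in SPF regions and 1 (Cybb) in acetate regions. Fitting only the groups compared gave 0 in SPF 5xFAD against wild type. Without SPF2152, wild-type acetate against GF gave 1 (Cybb). Without wild-type GF530 and GFA518, 5xFAD acetate against GF gave 1 (Ncf1). Without SPF2152, SPF2153 and GF532, chosen after seeing the data, 5xFAD GF against SPF gave 2 (Cyba, Ncf1). Leaving out 1 library at a time gave 0 to 1 in cortex acetate against GF and 0 to 1 in SPF 5xFAD against wild type, and moved no other count of members. The causes were not tested. DESeq2 moved the count of all genes called by over 1.5 times in all 19 comparisons (311 to 602 in 5xFAD GF against SPF, 97 to 310 and 428 to 771 in 5xFAD against wild type in SPF and acetate).

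Whole-brain samples of the same number showed no correlation of deviations (r -0.037 to -0.003 in 3 pairs). With a replicate block 0 members were called, as without it, and 46 genes instead of 226. Without the animal block the regions still had 0 members called. Cybb rests on few counts, 6 to 40 in wild-type SPF and 0 to 56 in wild-type acetate hippocampus, so its folds are the least precise. In hippocampus, wild-type SPF4 and 5xFAD SPF2142 were the shallowest libraries (5.86 and 5.74 M); without both, no member's call changed.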
